A study of Mus musculus with 868 samples.

Results

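Whole-brain gene expression after 3 antipsychotic drugs, Asenapine, Lurasidone and Olanzapine, was set against that after 2 bisphosphonates, Alendronate and Risedronate. The libraries were chosen by tissue and drug label: all brain libraries of these 5 drugs, 12 of the 38 brain libraries and of the 868 libraries of the series. They comprised 4 Asenapine, 2 Lurasidone and 2 Olanzapine libraries (8 antipsychotic libraries), with 2 Alendronate and 2 Risedronate libraries (4 bisphosphonate libraries) as the group they were compared with. Every library came from C57BL/6N mice, and the labels of these groups give the strain, the tissue and the drug, with no dose, duration, age, sex or vehicle. None of the 12 was a vehicle library or one without a drug, so every difference below is between drugs and none is between a drug and no drug. The labels do not say whether libraries of 1 drug came from separate animals, so p-values measure the spread between these libraries, which may be technical.

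Asenapine, Lurasidone and Olanzapine are second-generation antipsychotics, which block dopamine D2 and serotonin 5-HT2A receptors. They differ in their other targets: Olanzapine and Asenapine also bind histamine H1 receptors with high affinity, and Lurasidone binds these only weakly. Alendronate and Risedronate are nitrogen-containing bisphosphonates, drugs that settle on bone mineral and block farnesyl pyrophosphate synthase in osteoclasts. The D2 receptor gene Drd2 was listed at 0 counts in all 12 libraries, in 3′ end counting that reads only the last part of each transcript, and Htr2a, which encodes 5-HT2A, did not reach the level needed for testing (18 counts over the 12 libraries). Fdps, the gene of farnesyl pyrophosphate synthase, did not pass any of the antipsychotic comparisons and stood at 6.24 to 24.2 CPM (counts scaled to a common library size) with the antipsychotics, against 13.5 to 21.8 CPM with the bisphosphonates.

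Total counts ranged from 670011 to 1321852 per library, and 7997 genes had enough counts to be tested. The symbols Akap5 and Lrrc17 took up 18.1 to 23.7% and 15.1 to 17.6% of the counts of a library. Akap5 made up 22.1 to 23.7% with Lurasidone, above all 4 bisphosphonate libraries (18.3 to 19.2%). With Asenapine (18.1 to 22.9%) and Olanzapine (18.3 to 18.5%) it overlapped them. Markers of brain cells were present in every library: the myelin gene Mbp stood at 1514 to 2303 CPM and the choroid plexus gene Ttr at 554 to 1133 CPM. The haemoglobin genes Hba-a1, Hba-a2, Hbb-bs and Hbb-bt were listed at 0 in all 12. The other blood markers, Alas2, S100a8 and S100a9, summed to 10.9 to 144 CPM in the antipsychotic libraries and 12.3 to 153 CPM in the bisphosphonate libraries. Asenapine replicate 4 and Alendronate replicate 2 alone made the upper ends, and the next highest library, Risedronate replicate 1, stood at 46.1 CPM. The zeros are therefore no measure of blood in the tissue, and their origin was not tested. Of the pituitary hormone genes, Gh varied from 0 to 72.8 CPM in the antipsychotic libraries and from 6.92 to 97.0 CPM in the bisphosphonate libraries. The nuclear RNA Malat1 made up 0.323 to 0.447% of counts with Asenapine, 0.330 to 0.449% with Lurasidone and 0.838 to 0.870% with Olanzapine, against 0.713 to 0.862% with the bisphosphonates. Ribosomal RNA assigned to Rn45s made up 1.54 to 3.56%, 2.01 to 2.77% and 4.44 to 4.92% in the same 3 drugs, against 3.99 to 5.34%. In both measures Asenapine and Lurasidone lay below all 4 bisphosphonate libraries, and Olanzapine overlapped them. The part of these differences in the results was not tested.

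**Figure D1:**
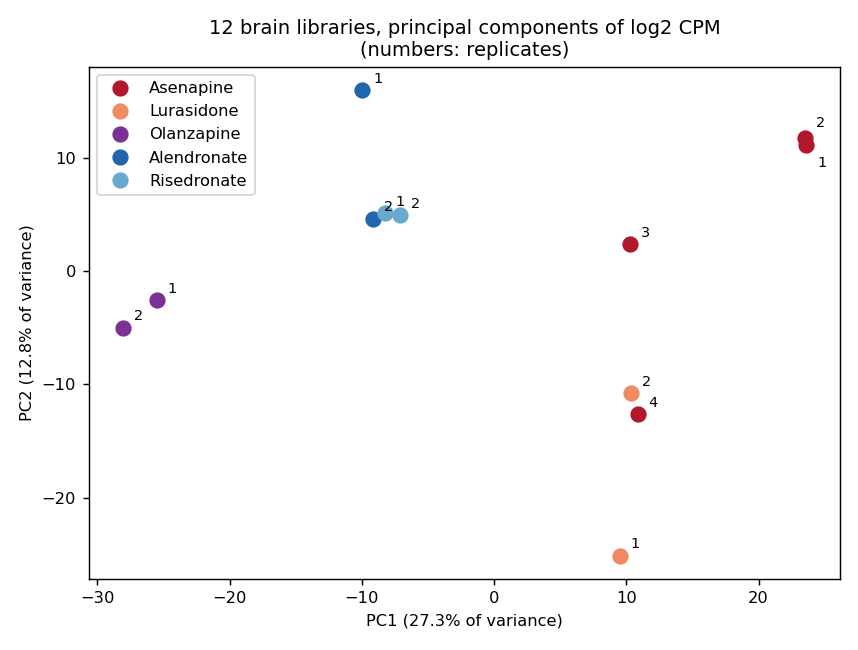
The 12 libraries on the first and second principal components of log2 CPM (27.3% and 12.8% of the variance), coloured by drug. On the first component Asenapine replicates 1 and 2 lie at 23.6 and 23.5, Asenapine replicates 3 and 4 at 10.3 and 10.9, Lurasidone at 9.51 and 10.3, and Olanzapine at -25.5 and -28.1, with the 4 bisphosphonate libraries between -9.98 and -7.10.

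Vehicle brain libraries of the series, and those labelled WT3prime with no drug named, were not used as controls here, because they lay outside the range of the 12 on principal components of all 38 brain libraries. On the first principal component the 12 lay at 4.44 to 19.4 and the WT3prime, Sucrose, APAP and Sofosbuvir libraries at -57.6 to -38.3. On the second the 12 lay at 1.33 to 26.3 and CMCTween and 8 other drugs at -20.2 to 0.874. That border runs past Olanzapine, whose libraries lay at 2.93 and 1.33, near Lenalidomide at 0.874, while the next of the 12 lay at 10.1. What sets these groups of libraries apart was not tested. Within the 12, the 3 antipsychotics did not stand on 1 side of the bisphosphonates. On the first principal component Asenapine and Lurasidone were above the 4 bisphosphonate libraries and Olanzapine was below them. The Asenapine libraries also fell into pairs, replicates 1 and 2 beside replicates 3 and 4: the chi-square statistic per degree of freedom between libraries was 1.41 and 1.96 within these pairs and 2.55 to 3.65 across them. Fold changes ran with the base composition and length of the transcripts. Over 5 equal bins of GC content in the last 500 bases, the median log2 difference from the bisphosphonates ran from -0.16 in the lowest bin to 0.23 in the highest with Asenapine, from -0.25 to 0.29 with Lurasidone and from 0.07 to -0.03 with Olanzapine. Over bins of transcript length it ran from 0.18 in the shortest to -0.19 in the longest with Asenapine, from 0.19 to -0.16 with Lurasidone and from -0.09 to 0.09 with Olanzapine. How far these trends set single genes was examined with offsets for GC content and length, added after seeing the data. Of the named calls they ended 67, and the results give these beside the genes described.

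**Figure D2:**
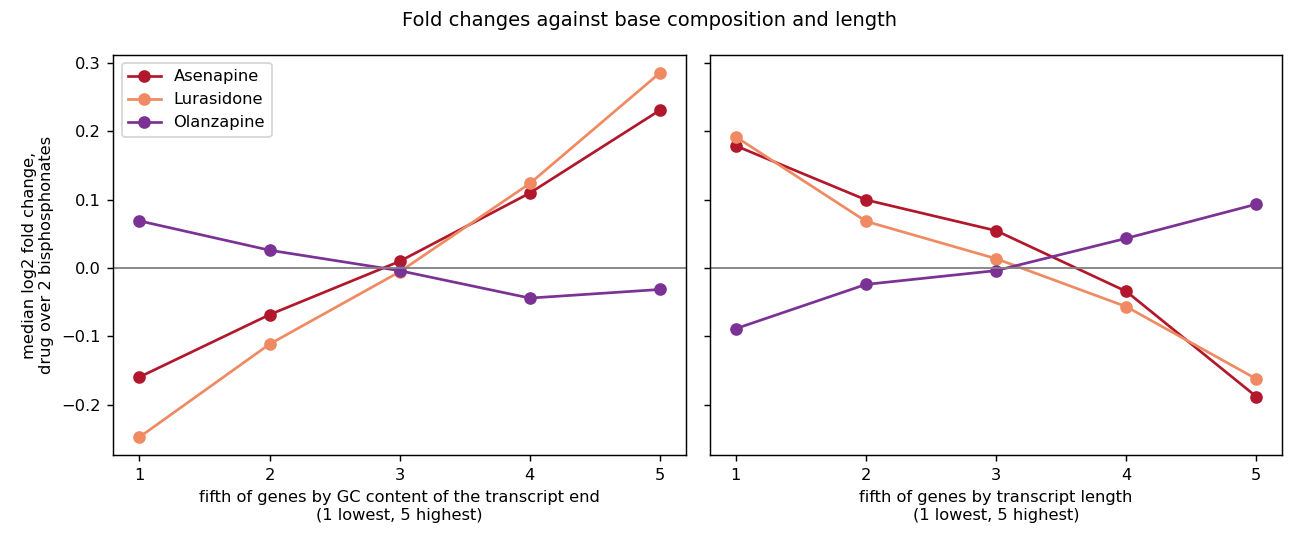
Median log2 difference of each antipsychotic from the bisphosphonates in 5 equal bins of genes by GC content of the last 500 bases and by transcript length. Asenapine and Lurasidone run upward with GC content (to 0.23 and 0.29 in the highest bin) and downward with length (to -0.19 and -0.16), while Olanzapine runs weakly the other way.

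With all 8 antipsychotic libraries taken as 1 class, only 6 of 7997 genes (0.075%) passed edgeR's quasi-likelihood test after Benjamini-Hochberg adjustment, 3 higher (0.0375%) and 3 lower (0.0375%), against 949 genes (11.9%) at an unadjusted p under 0.05. The class test took libraries and not drugs as its unit, and 4 of the 8 were from Asenapine. Its p-values therefore do not measure the spread between drugs of a class. Of the 6, 4 are described here. Asenapine and Lurasidone each passed for all 6 when tested alone against the same bisphosphonate libraries, and Olanzapine passed for 3, Fut8, Osbp2 and Slc25a4. All 8 antipsychotic libraries lay above all 4 bisphosphonate libraries at 76 genes (0.95%) and below them at 50 genes (0.625%).

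Fut8 encodes the fucosyltransferase that adds core fucose to N-glycans and lies at chr12:77238125-77476338 (GRCm38, plus strand). It had 77.4, 81.8, 67.3 and 85.5 CPM in the Asenapine libraries, 69.6 and 116 CPM with Lurasidone and 102 and 117 CPM with Olanzapine. Fut8 stood at 190.4 and 192 CPM with Alendronate and 150.3 and 152 CPM with Risedronate. Every antipsychotic library was below every bisphosphonate library, and the class difference was larger in size than those of the other described genes that passed (log2 fold change -0.94, SE 0.14, adjusted p = 0.00277). By drug the log2 differences were -1.11 with Asenapine, -0.87 with Lurasidone and -0.64 with Olanzapine (adjusted p = 7.89e-09, 0.000274 and 0.0269), and Asenapine was lower than Olanzapine in the direct contrast (log2 fold change -0.47, SE 0.17, adjusted p = 0.0423). The ADP/ATP carrier gene Slc25a4 (chr8:46206797-46211284, minus strand), which exchanges ADP and ATP across the inner mitochondrial membrane, had 488, 537, 594 and 561 CPM in the Asenapine libraries, 517 and 543 CPM with Lurasidone and 576 and 607 CPM with Olanzapine. Slc25a4 stood at 856 and 755 CPM with Alendronate and 692 and 762 CPM with Risedronate. It too was lower in all 8 antipsychotic libraries (log2 fold change -0.47, SE 0.09, adjusted p = 0.0362), with -0.49, -0.53 and -0.37 in the 3 drugs in the same order.

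Osbp2, which encodes an oxysterol-binding protein (chr11:3703731-3863903, minus strand), had 135, 127, 111 and 165 CPM in the Asenapine libraries, 149 and 113 CPM with Lurasidone and 123 and 142 CPM with Olanzapine. Osbp2 stood at 92.1 and 71.8 CPM with Alendronate and 80.01 and 84.4 CPM with Risedronate. All 8 antipsychotic libraries were above the bisphosphonate libraries (log2 fold change 0.69, SE 0.14, adjusted p = 0.0362), and the 3 drugs gave close estimates of 0.71, 0.67 and 0.68. Tmsb10, which encodes the actin-binding thymosin beta 10 (chr6:72957347-72958748, minus strand), had 405, 385, 384 and 379 CPM in the Asenapine libraries, 406 and 417 CPM with Lurasidone and 324 and 310.4 CPM with Olanzapine. Tmsb10 stood at 256 and 262 CPM with Alendronate and 292 and 229.6 CPM with Risedronate. Again the classes did not overlap (log2 fold change 0.53, SE 0.11, adjusted p = 0.046), and the Olanzapine difference of 0.29 did not pass (adjusted p = 0.212).

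**Figure D3:**
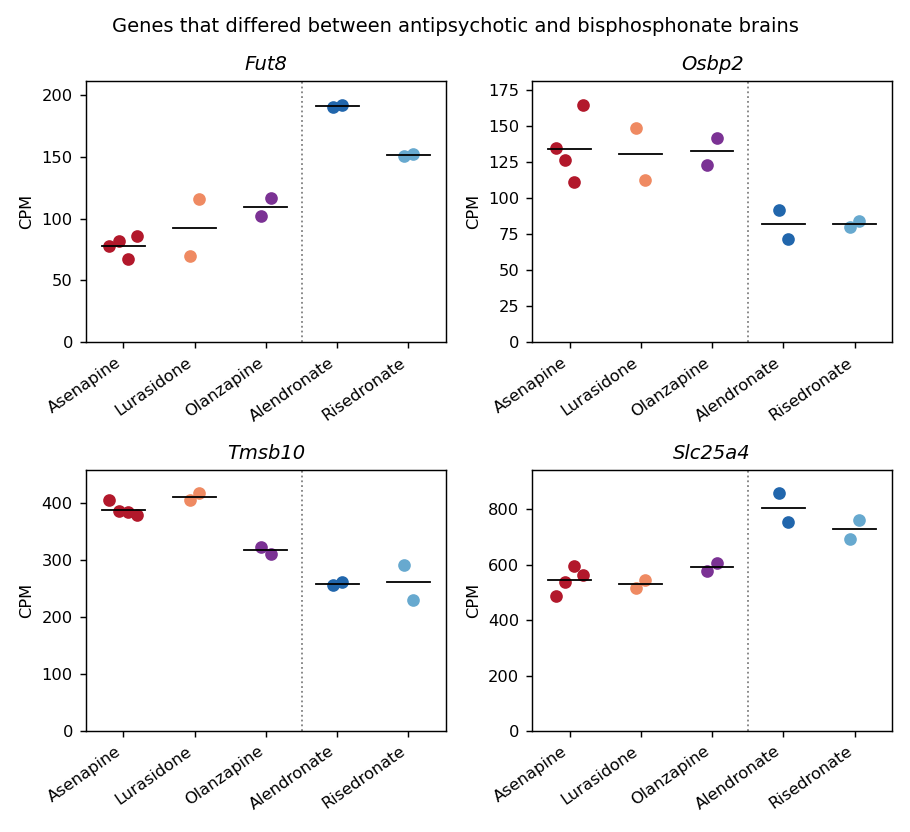
CPM in each of the 12 libraries for Fut8, Osbp2, Tmsb10 and Slc25a4, which passed the class test, with drugs from Asenapine to Risedronate along the axis, a bar at each drug's mean and a dotted line between antipsychotics and bisphosphonates. Fut8 and Slc25a4 lie lower in all 8 antipsychotic libraries and Osbp2 and Tmsb10 lie higher, with no overlap between the classes.

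These class calls rested on few libraries. The Fut8 call ended without either Alendronate library (adjusted p 0.0591 to 0.0695). The Osbp2 call ended without Asenapine replicate 1 or 4, Lurasidone replicate 1 or any bisphosphonate library (adjusted p 0.0723 to 0.249). The Slc25a4 call ended without any Asenapine library, either Lurasidone library or any bisphosphonate library (adjusted p 0.0558 to 0.355). The Tmsb10 call ended without any Asenapine library, either Lurasidone library or any bisphosphonate library (adjusted p 0.0658 to 0.355). The number of class calls fell to 2 without Asenapine replicate 1, 3 without Asenapine replicate 3, 2 without Asenapine replicate 4, 3 without Lurasidone replicate 1, 0 without Alendronate replicate 1 or 2 and 1 without Risedronate replicate 1 or 2. It was 127 without Olanzapine replicate 1, 89 without Olanzapine replicate 2, and 911 with both Olanzapine libraries left out. With the offsets for GC content and length, Tmsb10 no longer passed (log2 fold change 0.34, adjusted p = 0.185).

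The genes next in line did not pass the class test (adjusted p from 0.109 to 0.13) and, over the fits with 1 library left out, passed only without an Olanzapine library. They were higher in the antipsychotics for Pacsin1, a synaptic vesicle endocytosis adaptor (0.48), Dpf1, a subunit of the neuronal BAF chromatin remodeller (0.76), R3hdm4 (0.72), Snph, syntaphilin, which anchors axonal mitochondria (0.52), and Ppp2r5b, a regulatory subunit of protein phosphatase 2A (1.03). They were lower for Lrrc4c, the netrin-G1 ligand (-0.60), Pura, a nucleic acid binding protein (-0.54), and Cbx1, heterochromatin protein 1 beta (-0.84). Without Olanzapine replicate 1 their adjusted p ran from 0.0142 to 0.0333, and without Olanzapine replicate 2 from 0.0246 to 0.0423. None of the gene lists had a member that passed the class test.

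Taken singly, Asenapine differed from the bisphosphonates at 1041 of 7997 genes (13%), 461 higher (5.76%) and 580 lower (7.25%). Lurasidone differed at 478 genes (5.98%), 249 higher (3.11%) and 229 lower (2.86%), and Olanzapine at 94 genes (1.18%), 48 higher (0.6%) and 46 lower (0.575%). At an unadjusted p under 0.05 the shares were 26.3% for Asenapine, 21.3% for Lurasidone and 14.1% for Olanzapine. All libraries of a drug lay above all 4 bisphosphonate libraries at 7.13% of genes for Asenapine, 14.9% for Lurasidone and 13.3% for Olanzapine, and below them at 8.2%, 15.3% and 12.9% in the same order. The 3 comparisons share the 4 bisphosphonate libraries, and Asenapine has 4 libraries where the other drugs have 2, so the counts are not a measure of which drug acts more. The Asenapine count fell to 599 without Risedronate replicate 1, 604 without Alendronate replicate 1, 625 without Risedronate replicate 2 and 664 without Asenapine replicate 2. Of the genes described here and under other observations, besides those marked singly, Acvr2a, Arl5b, Brwd3, Cbln1, Cbx1, Cep295, Chpf2, Dnaja1, Ermn, Gabra4, Gnal, Hsp90b1, Hspd1, Ipo7, Lrrc47, Ppp1r12b, Ppp1r1b, Ppp2r5b, R3hdm4, Rbm3, Rhbdd3, Rpl18, Rpl3, Rpl32, Rps14, Snrpd3, Them6, Tubb4b, Txlng, Wnt7b and Zic1 are overlapped by a gene on the other strand somewhere in their locus. Where the overlap takes in the counted transcript end, their reads cannot be told apart from its own without the counting strand. Which overlaps do so was not examined. On its own strand Churc1 overlaps Fntb, Naa10 overlaps Arhgap4, Pop7 overlaps Epo, Gnal overlaps Chmp1b and Asic2 overlaps another transcript. Several others overlap small RNA genes on their own strand. Knowing the counting strand would not resolve these overlaps.

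With Asenapine, 8 of 15 heat shock genes tested fell and none rose, while 2 of 3 cold-inducible genes rose, beside 7.25% lower and 5.76% higher over all genes. The gene lists here and below were chosen with earlier results of these data known. Their counts beside the shares over all genes are therefore a description and no independent test. Heat shock proteins fold and refold other proteins, and their genes are switched on by heat shock factor 1, which binds repeats of the unit GAA in alternating orientation. Cirbp and Rbm3 are RNA-binding proteins whose messenger RNA rises when mammalian cells are cooled by a few degrees, and Srsf5 is a splicing factor induced likewise by cooling. In bulk tissue, fewer cells of a type and less RNA per cell cannot be told apart. The promoter windows of heat shock genes that were lower with Asenapine, and that of Cirbp, are shown where they hold a match, so the printed windows are a choice and not the whole set. Each is RefSeq sequence of build GRCm38.p6, from 250 bases before to 50 bases after a transcription start, with capitals marking GAANNTTC or TTCNNGAA, searched on both strands and able to overlap each other, and in Cirbp the letters TCCCCGCC, reported as a mild cold response element.
Chordc1, chr9:18292017-18292316, plus strand: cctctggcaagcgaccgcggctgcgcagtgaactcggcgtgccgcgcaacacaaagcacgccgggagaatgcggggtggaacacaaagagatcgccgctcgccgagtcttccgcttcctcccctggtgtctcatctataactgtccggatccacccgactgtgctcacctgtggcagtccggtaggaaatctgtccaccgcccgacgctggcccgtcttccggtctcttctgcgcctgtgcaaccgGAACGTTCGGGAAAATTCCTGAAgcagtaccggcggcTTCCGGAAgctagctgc
Hsph1, chr5:149636266-149636565, minus strand: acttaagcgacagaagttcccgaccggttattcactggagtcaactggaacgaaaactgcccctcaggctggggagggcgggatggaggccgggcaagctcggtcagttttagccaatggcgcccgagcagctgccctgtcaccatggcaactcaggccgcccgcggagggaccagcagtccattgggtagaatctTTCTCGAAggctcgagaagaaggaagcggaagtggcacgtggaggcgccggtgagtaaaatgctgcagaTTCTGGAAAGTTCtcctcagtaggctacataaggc
Hspd1, chr1:55087883-55088182, minus strand: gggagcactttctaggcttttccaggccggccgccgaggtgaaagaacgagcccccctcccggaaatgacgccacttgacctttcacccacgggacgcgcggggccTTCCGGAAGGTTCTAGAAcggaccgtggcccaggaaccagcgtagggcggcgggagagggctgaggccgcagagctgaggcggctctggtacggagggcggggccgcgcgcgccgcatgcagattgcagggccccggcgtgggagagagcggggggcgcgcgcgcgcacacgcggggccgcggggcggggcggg
Cirbp, chr10:80167589-80167888, plus strand: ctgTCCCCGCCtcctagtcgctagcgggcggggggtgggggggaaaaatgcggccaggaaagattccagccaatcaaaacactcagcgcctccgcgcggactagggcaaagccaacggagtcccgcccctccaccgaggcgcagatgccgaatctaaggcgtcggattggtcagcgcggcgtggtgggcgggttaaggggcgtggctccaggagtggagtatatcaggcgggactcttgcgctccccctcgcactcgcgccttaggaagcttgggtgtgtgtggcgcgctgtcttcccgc
In Chordc1 the units run into each other across the start site, in Hspd1 a like run lies upstream in a window that overlaps that of the neighbouring gene Hspe1, and in Hsph1 the matches lie on both sides of the start. Of all 32851 promoter windows, 15.1% hold GAANNTTC or TTCNNGAA (7.86% and 8.52% taken singly) and 5.38% hold TCCCCGCC. These are shares of single windows, and some genes have several. Of the 8 heat shock genes lower with Asenapine, 5 had windows, and 5 of their 9 windows held an element (in Chordc1, Dnaja1, Hspd1 and Hsph1). The 7 tested members that did not pass had 8 windows, of which 3 held an element, and the 3 members not tested had 3, of which all 3 did. Not printed are the window of Hspa4l and the second windows of Hspd1 and Cirbp, in which no searched motif was found, a second window of Hsph1 that overlaps the first, and the 3 of Dnaja1, of which 1 holds GAANNTTC. The window of Srsf5 holds no TCCCCGCC, and windows of the heat shock genes Dnaja1, Dnajb1, Hspa1a, Hspa1b and Bag3 do.

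The heat shock list had a median of -0.36 on the log2 scale beside 0.03 over all genes. Hsp90ab1, the constitutive cytosolic HSP90, had 1671, 1619.5, 1703 and 1812 CPM in the Asenapine libraries, 2159 and 2223 CPM with Lurasidone and 1904 and 1739 CPM with Olanzapine. Hsp90ab1 stood at 2107 and 2075 CPM with Alendronate and 2256 and 2315 CPM with Risedronate. All 4 Asenapine libraries were below all bisphosphonate libraries (log2 fold change -0.36, SE 0.07, adjusted p = 0.000254), while Lurasidone overlapped them (0.00) and Olanzapine was below them without passing (-0.26, adjusted p = 0.133). Hspa8, the constitutive HSC70, had 770.2, 805, 932 and 904 CPM in the Asenapine libraries, 1124 and 1208 CPM with Lurasidone and 939 and 948 CPM with Olanzapine. Hspa8 stood at 1055 and 1081 CPM with Alendronate and 1143 and 1091 CPM with Risedronate. Both Asenapine (log2 fold change -0.36, SE 0.08, adjusted p = 0.000709) and Olanzapine (-0.21, adjusted p = 0.281) lay below all bisphosphonate libraries, and the Olanzapine difference did not pass. Hsp90aa1, the stress-inducible HSP90 that is abundant in neurons, differed by -0.34 (SE 0.07, adjusted p = 0.000559).

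The other 5 heat shock genes that fell were the HSP110 nucleotide exchange factor genes Hsph1 (-0.40) and Hspa4l (-0.94), the HSP40 co-chaperone gene Dnaja1 (-0.39), the HSP90 co-chaperone gene Chordc1 (-0.58) and Hspd1, the mitochondrial chaperonin HSP60 (-0.37). The summed level of the list was 5412 to 5844 CPM with Asenapine, 6927 to 7252 CPM with Lurasidone and 6234 to 6735 CPM with Olanzapine, against 6716 to 7459 CPM with the bisphosphonates. Asenapine lay below the bisphosphonates throughout, Lurasidone within them, and Olanzapine partly below. In the direct contrast Asenapine was below Lurasidone at Hspa8 (log2 fold change -0.45, SE 0.09, adjusted p = 0.00323), Hsp90ab1 (log2 fold change -0.37, SE 0.09, adjusted p = 0.0186) and Hsph1 (log2 fold change -0.55, SE 0.13, adjusted p = 0.0208). Against Olanzapine, Hspa8 differed by -0.15 and Hsp90ab1 by -0.10, which did not pass (adjusted p = 0.278 and 0.455). With Lurasidone 1 member, Stip1, rose (log2 fold change 0.57, SE 0.18, adjusted p = 0.0446), and with Olanzapine none passed.

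The heat shock count of 8 fell to 5 without Asenapine replicate 2 or Risedronate replicate 1, to 5 with the GC and length offsets, to 5 with DESeq2, and to 2 with Alendronate alone as the group compared with. The Hsph1 call ended without Asenapine replicate 2 or Risedronate replicate 2 (adjusted p 0.0512 to 0.0784). The Hspa4l call ended without Asenapine replicate 1, 2 or 4, either Lurasidone library, either Alendronate library or Risedronate replicate 1 (adjusted p 0.0576 to 0.127). The Dnaja1 call ended without Risedronate replicate 1 (adjusted p 0.109). The Chordc1 call ended without Asenapine replicate 2, Alendronate replicate 2 or Risedronate replicate 1 (adjusted p 0.0618 to 0.293). The Hspd1 call ended without Asenapine replicate 1, Alendronate replicate 1 or Risedronate replicate 2 (adjusted p 0.0573 to 0.107). The Stip1 call in Lurasidone ended without Lurasidone replicate 1, either Olanzapine library or any bisphosphonate library (adjusted p 0.0532 to 0.741). Without Asenapine replicates 1 and 2 the count was also 5 and the list median -0.24, against -0.36 with all 4. The Hspa4l, Dnaja1 and Chordc1 calls ended with the GC and length offsets (adjusted p 0.104 to 0.161). The Hsph1, Hspa4l, Chordc1 and Hspd1 calls ended without Asenapine replicates 1 and 2 (adjusted p 0.115 to 0.305). The Stip1 call in Lurasidone ended with the GC and length offsets (adjusted p 0.413).

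Cirbp (chr10:80165985-80172786, plus strand) had 63.5, 84.6, 53.1 and 68.9 CPM in the Asenapine libraries, 33.2 and 16.6 CPM with Lurasidone and 12.9 and 23.4 CPM with Olanzapine. Cirbp stood at 27.0 and 37.3 CPM with Alendronate and 15.8 and 42.9 CPM with Risedronate. The 4 Asenapine libraries were above all 8 others (log2 fold change 1.19, SE 0.22, adjusted p = 0.000377). Asenapine was also higher than Lurasidone (log2 fold change 1.47, SE 0.28, adjusted p = 0.00428) and than Olanzapine (log2 fold change 1.97, SE 0.33, adjusted p = 4.38e-05) in direct contrasts. Srsf5 had 183, 147, 116 and 96.0 CPM in the Asenapine libraries, 48.2 and 57.9 CPM with Lurasidone and 103 and 70.2 CPM with Olanzapine. Srsf5 stood at 87.2 and 85.6 CPM with Alendronate and 64.3 and 58.1 CPM with Risedronate. It was higher with Asenapine than with the bisphosphonates (log2 fold change 0.91, SE 0.16, adjusted p = 0.00014), Lurasidone (log2 fold change 1.36, SE 0.21, adjusted p = 0.000515) and Olanzapine (log2 fold change 0.63, SE 0.20, adjusted p = 0.02), although Asenapine replicate 4 stood below the first Olanzapine library. Rbm3, the third member of the list, had 38.7, 56.9, 40.1 and 26.1 CPM in the Asenapine libraries, 24.6 and 19.7 CPM with Lurasidone and 18.8 and 20.3 CPM with Olanzapine. Rbm3 stood at 33.2 and 27.6 CPM with Alendronate and 30.3 and 36.0 CPM with Risedronate. It did not pass against the bisphosphonates (log2 fold change 0.39, SE 0.21, adjusted p = 0.231), with Asenapine replicate 4 below all of them. Cirbp and Srsf5 passed with any 1 library left out. Without Asenapine replicates 1 and 2 the count stayed at 2 and the list median was 0.55, against 0.91 with all 4, with Srsf5 at 0.55, still past the threshold, and Rbm3 at 0.05.

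**Figure D4:**
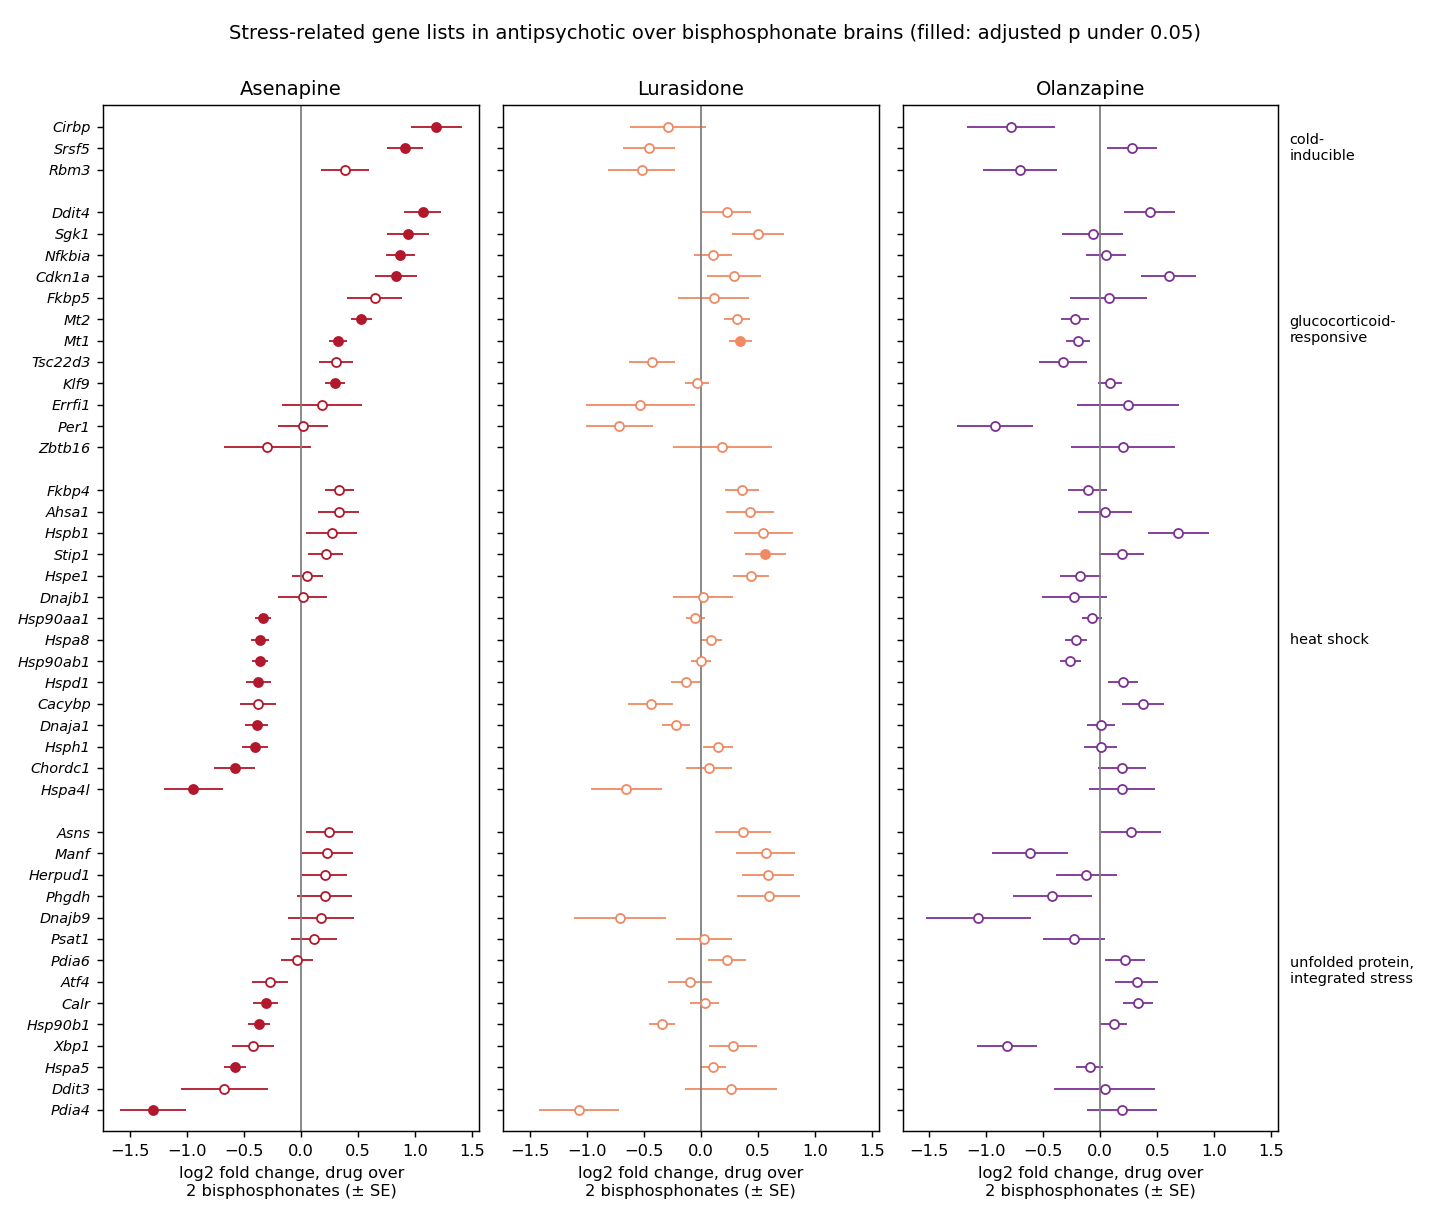
Log2 fold change (± SE) of each tested gene of the cold-inducible, glucocorticoid-responsive, heat shock and unfolded protein lists, in Asenapine, Lurasidone and Olanzapine over the bisphosphonates, with filled points at an adjusted p under 0.05. Asenapine has 2, 7, 8 and 4 filled points in these lists, Lurasidone has Mt1 and Stip1, and Olanzapine has none.

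The unfolded protein response raises chaperones of the endoplasmic reticulum when proteins misfold there. Of 14 genes of the unfolded protein and integrated stress response tested, 4 fell with Asenapine and none rose (list median -0.15). Among all genes 7.25% fell and 5.76% rose. Hspa5, which encodes the chaperone BiP, had 293, 281, 347 and 348 CPM in the Asenapine libraries, 421 and 593 CPM with Lurasidone and 461 and 421 CPM with Olanzapine. Hspa5 stood at 400.5 and 491 CPM with Alendronate and 499 and 501 CPM with Risedronate. Every Asenapine library was below every other library (log2 fold change -0.58, SE 0.10, adjusted p = 2.35e-05), and the direct contrasts passed against Lurasidone (log2 fold change -0.68, SE 0.11, adjusted p = 0.000515) and Olanzapine (log2 fold change -0.49, SE 0.12, adjusted p = 0.00221). The other members were the disulphide isomerase gene Pdia4 (log2 fold change -1.30, SE 0.29, adjusted p = 0.00111), Hsp90b1, which encodes GRP94 (-0.37), and the calcium-binding chaperone gene Calr (-0.31). No member passed with Lurasidone or Olanzapine. The count was 2 without Risedronate replicate 2, 2 with DESeq2 and 2 with Alendronate alone. The Hsp90b1 call ended without Risedronate replicate 2 (adjusted p 0.0601). The Calr call ended without Asenapine replicate 1 or 2, either Lurasidone library, either Olanzapine library or any bisphosphonate library (adjusted p 0.0512 to 0.231). The Calr call ended without Asenapine replicates 1 and 2 (adjusted p 0.79).

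Glucocorticoids act through a nuclear receptor that turns on genes such as Sgk1 and Fkbp5 in brain. Of 12 glucocorticoid-responsive genes tested, 7 rose with Asenapine and none fell (list median 0.43), beside 5.76% higher and 7.25% lower over all genes. The summed level of the list was 2283 to 2496 CPM with Asenapine, 1842 to 2157 CPM with Lurasidone and 1663 to 1761 CPM with Olanzapine, against 1689 to 1878 CPM with the bisphosphonates. Nfkbia, the NF-kappa-B inhibitor IkB-alpha, had 169, 215, 194 and 197 CPM in the Asenapine libraries, 85.7 and 143 CPM with Lurasidone and 96.2 and 126 CPM with Olanzapine. Nfkbia stood at 88.4 and 109 CPM with Alendronate and 116 and 113 CPM with Risedronate. The 4 Asenapine libraries were above all others (log2 fold change 0.87, SE 0.13, adjusted p = 1.55e-06), also in direct contrasts with Lurasidone (log2 fold change 0.76, SE 0.15, adjusted p = 0.00323) and Olanzapine (log2 fold change 0.82, SE 0.16, adjusted p = 0.000143).

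Ddit4, which encodes the mTORC1 inhibitor REDD1, had 124, 135, 93.2 and 81.4 CPM in the Asenapine libraries, 50.3 and 72.4 CPM with Lurasidone and 71.5 and 70.2 CPM with Olanzapine. Ddit4 stood at 40.5 and 55.2 CPM with Alendronate and 63.0 and 52.6 CPM with Risedronate. Asenapine was higher without overlap (log2 fold change 1.07, SE 0.16, adjusted p = 3.16e-06), and its replicates 1 and 2 were the highest. Sgk1, the serum- and glucocorticoid-regulated kinase, had 67.5, 66.8, 77.6 and 59.5 CPM in the Asenapine libraries, 37.5 and 62.1 CPM with Lurasidone and 29.3 and 39.0 CPM with Olanzapine. Sgk1 stood at 22.1 and 33.1 CPM with Alendronate and 41.2 and 49.8 CPM with Risedronate. The Asenapine libraries lay above all bisphosphonate libraries (log2 fold change 0.94, SE 0.18, adjusted p = 0.000223), among which Risedronate was higher than Alendronate. Cdkn1a, which encodes the cell cycle inhibitor p21, likewise rose (log2 fold change 0.83, SE 0.18, adjusted p = 0.00119).

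The metallothionein genes Mt2 (0.53) and Mt1 (0.33) and the transcription factor gene Klf9 (0.30) completed the 7. Fkbp5, a co-chaperone of the glucocorticoid receptor, and Tsc22d3, which encodes GILZ, did not pass (0.65 and 0.31, adjusted p = 0.0659 and 0.169). With Lurasidone 1 member passed, Mt1 (log2 fold change 0.35, SE 0.10, adjusted p = 0.021), and with Olanzapine none. Against Risedronate alone only 3 of the 7 passed, with Sgk1 at 0.57 and Cdkn1a at 0.43 (adjusted p = 0.115 and 0.261). The Mt1 and Mt2 calls ended with the GC and length offsets (adjusted p 0.0687 to 0.535). The Klf9 call ended without Asenapine replicates 1 and 2 (adjusted p 0.157). The Mt1 call in Lurasidone ended with the GC and length offsets (adjusted p 0.851). The Mt1 call ended without Alendronate replicate 1 (adjusted p 0.0727). The Klf9 call ended without Asenapine replicate 1, Alendronate replicate 1 or Risedronate replicate 2 (adjusted p 0.0746 to 0.0931). The Mt1 call in Lurasidone ended without either Lurasidone library, Alendronate replicate 1 or either Risedronate library (adjusted p 0.0665 to 0.16).

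Outside the lists, Txnip was among the 8 genes with the largest rises in Asenapine. It encodes the thioredoxin-interacting protein, which binds thioredoxin and limits glucose uptake. Txnip had 53.6, 69.0, 59.5 and 50.1 CPM in the Asenapine libraries, 24.6 and 27.9 CPM with Lurasidone and 16.4 and 17.2 CPM with Olanzapine. Txnip stood at 20.9 and 20.7 CPM with Alendronate and 18.2 and 23.5 CPM with Risedronate. The Asenapine libraries stood above the 8 others (log2 fold change 1.49, SE 0.20, adjusted p = 2.81e-07). Asic2, an acid-sensing sodium channel of neurons, had 87.3, 93.1, 88.0 and 80.3 CPM in the Asenapine libraries, 58.9 and 61.0 CPM with Lurasidone and 17.6 and 20.3 CPM with Olanzapine. Asic2 stood at 33.2 and 34.5 CPM with Alendronate and 24.2 and 27.7 CPM with Risedronate. It was higher with Asenapine (log2 fold change 1.56, SE 0.17, adjusted p = 1.13e-09) and with Lurasidone (log2 fold change 1.02, SE 0.21, adjusted p = 0.00165), while both Olanzapine libraries were below the bisphosphonates (-0.65, adjusted p = 0.288). The loci of Txnip and Asic2 each overlap a transcript on the other strand, and the counting strand is not stated.

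**Figure D5:**
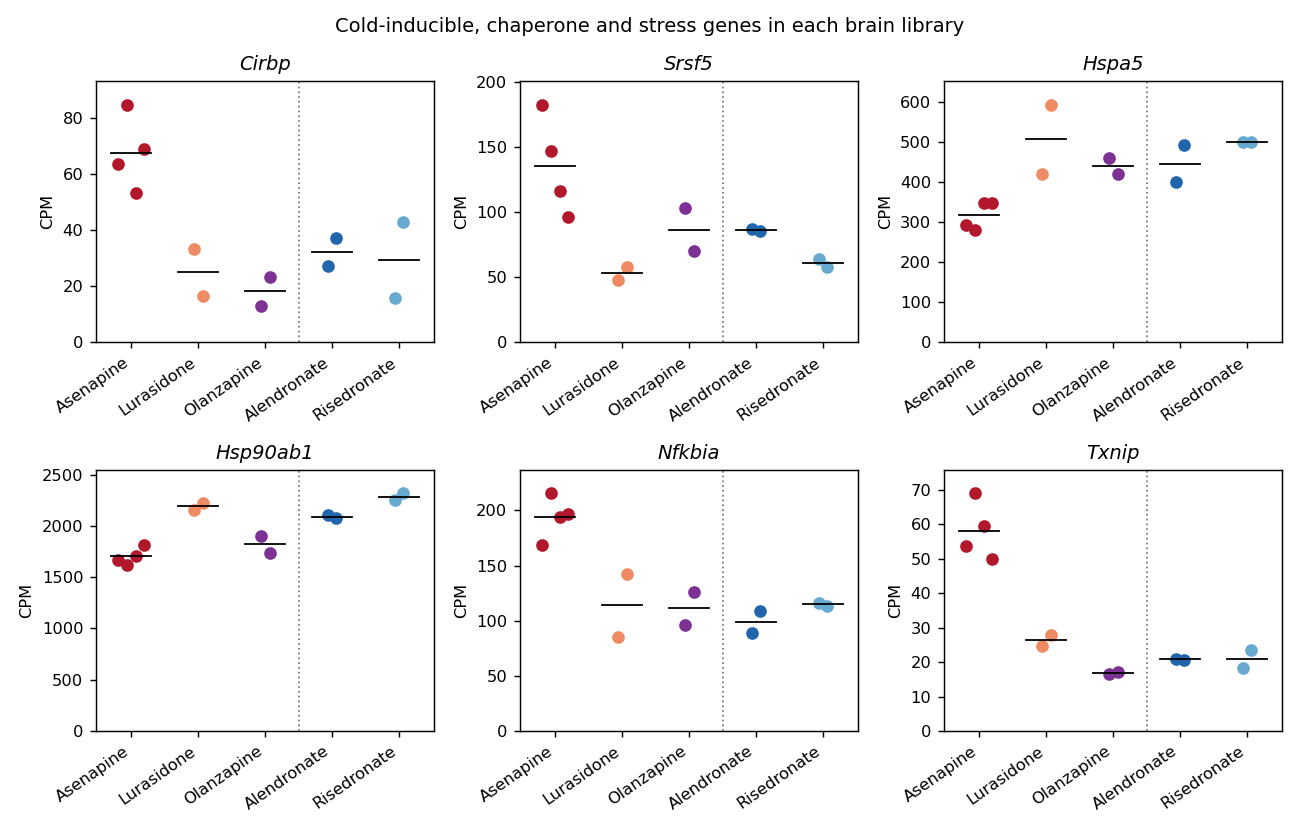
CPM in each of the 12 libraries for Cirbp, Srsf5, Hspa5, Hsp90ab1, Nfkbia and Txnip, by drug, with a bar at each drug's mean and a dotted line between antipsychotics and bisphosphonates. Cirbp, Nfkbia and Txnip are higher and Hspa5 is lower in the 4 Asenapine libraries than in the 8 others.

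The other genes with large rises in Asenapine, all higher than in the bisphosphonates without overlap, were Nrros, a microglial TGF-beta-binding protein (log2 fold change 2.02, SE 0.44, adjusted p = 0.001), Tprn, the stereocilia protein taperin (1.56), Chpf2, a chondroitin polymerising factor (1.53), Ache, acetylcholinesterase (1.51), the zinc finger gene Zfr2 (1.31) and Hr, the hairless corepressor (1.30). Those with large falls were Kcnj6, the G protein-gated potassium channel GIRK2 (-1.77), the nuclear import receptor gene Ipo7 (-1.74), Ppp2r5a, a protein phosphatase 2A subunit (-1.48), Arl5b, a small GTPase of the Golgi (-1.35), the myosin phosphatase subunit gene Ppp1r12b (-1.31) and Brwd3 (-1.31). Many were low: Kcnj6 was at 0.993, 2.13, 3.88 and 7.30 CPM with Asenapine, against 9.68 to 15.2 CPM with the bisphosphonates. Ppp2r5a was at 6.95, 9.24, 19.4 and 12.5 CPM, against 26.7 to 38.7 CPM, and at 57.5 and 51.5 CPM with Olanzapine. The Ache call ended without Alendronate replicate 1 (adjusted p 0.0814). The Zfr2 call ended without Alendronate replicate 1 or Risedronate replicate 2 (adjusted p 0.0716 to 0.074). The Kcnj6 call ended without Risedronate replicate 1 (adjusted p 0.0564). The Ipo7 call ended without Alendronate replicate 1 (adjusted p 0.1). The Ppp1r12b call ended without Risedronate replicate 1 (adjusted p 0.103). The Brwd3 call ended without Asenapine replicate 2, Alendronate replicate 1 or Risedronate replicate 2 (adjusted p 0.062 to 0.0975). The Zfr2 and Brwd3 calls ended with the GC and length offsets (adjusted p 0.0525 to 0.0983). The Hr, Kcnj6, Ipo7, Ppp1r12b and Brwd3 calls ended without Asenapine replicates 1 and 2 (adjusted p 0.0904 to 0.271).

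Immediate early genes are transcribed within minutes of neuronal firing and mark recent activity. Of 17 tested, 4 fell with Asenapine and 1 with Lurasidone, and none rose, while over all genes 7.25% and 2.86% fell with these drugs. Arc, which encodes a synaptic cytoskeleton protein, had 42.7, 26.3, 18.1 and 11.5 CPM in the Asenapine libraries, 40.7 and 25.9 CPM with Lurasidone and 36.4 and 70.2 CPM with Olanzapine. Arc stood at 50.4 and 51.1 CPM with Alendronate and 103 and 73.3 CPM with Risedronate. All 4 Asenapine libraries were below the bisphosphonates (log2 fold change -1.41, SE 0.30, adjusted p = 0.00671), Lurasidone was below them at -1.01 without passing, and Olanzapine overlapped them. Egr1 had 189.6, 140.1, 169.5 and 123 CPM in the Asenapine libraries, 126 and 128 CPM with Lurasidone and 158 and 175 CPM with Olanzapine. Egr1 stood at 192 and 153 CPM with Alendronate and 295 and 268 CPM with Risedronate, so Risedronate was above Alendronate. Egr1 was lower with Asenapine (log2 fold change -0.51, SE 0.11, adjusted p = 0.00109) and with Lurasidone (log2 fold change -0.79, SE 0.14, adjusted p = 0.000296), but against Alendronate alone neither passed (-0.16 and -0.44, adjusted p = 0.561 and 0.131). The other 2 were Nr4a2 (-0.58) and Jun (-0.50). The Jun call ended without Asenapine replicate 1 or 2, Alendronate replicate 2 or Risedronate replicate 1 (adjusted p 0.0936 to 0.223). The Jun call ended without Asenapine replicates 1 and 2 (adjusted p 0.371). With Alendronate alone the Asenapine count was 0.

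Of 13 genes of dopamine receptors and striatal projection neurons tested, 3 rose and 1 fell with Asenapine, 1 rose with Lurasidone and none passed with Olanzapine. Over all genes 5.76% rose and 7.25% fell with Asenapine and 3.11% rose with Lurasidone, so 1 call among 13 is near these shares. Pde1b, a calmodulin-dependent phosphodiesterase, had 116, 104, 94.5 and 103 CPM in the Asenapine libraries, 103 and 102 CPM with Lurasidone and 83.3 and 92.0 CPM with Olanzapine. Pde1b stood at 60.2 and 73.2 CPM with Alendronate and 72.7 and 74.7 CPM with Risedronate. All 8 antipsychotic libraries were above the bisphosphonates, with Asenapine and Lurasidone past the threshold (log2 fold change 0.58, SE 0.14, adjusted p = 0.00218, and log2 fold change 0.55, SE 0.16, adjusted p = 0.0308) and Olanzapine at 0.32. Ppp1r1b, which encodes the dopamine- and cAMP-regulated phosphoprotein DARPP-32 (0.47), and Penk, proenkephalin (0.37), also rose with Asenapine, and Gnal, the olfactory G protein alpha subunit, fell (-0.34). The summed list stood at 938 to 989.6 CPM in the 8 antipsychotic libraries, against 848 to 928 CPM in the 4 bisphosphonate libraries. None of the rises passed with Risedronate alone. The Pde1b, Ppp1r1b, Penk and Gnal calls ended with the GC and length offsets (adjusted p 0.061 to 0.25). The Penk and Gnal calls ended without Asenapine replicates 1 and 2 (adjusted p 0.259 to 0.605). The Pde1b call in Lurasidone ended with the GC and length offsets (adjusted p 0.38). The Penk call ended without Asenapine replicate 1 or 2, either Alendronate library or Risedronate replicate 1 (adjusted p 0.0906 to 0.218). The Gnal call ended without Asenapine replicate 1 or 2, Alendronate replicate 1 or either Risedronate library (adjusted p 0.064 to 0.109). The Pde1b call in Lurasidone ended without either Lurasidone library, Alendronate replicate 1 or either Risedronate library (adjusted p 0.0694 to 0.216).

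Among 6 neuropeptide genes tested, Cartpt (1.05), Cck (0.36) and Npy (0.48) rose and Crh, corticotropin-releasing hormone, fell (-0.79) with Asenapine. The shares over all genes were 5.76% higher and 7.25% lower. Cck also rose with Lurasidone (log2 fold change 0.41, SE 0.11, adjusted p = 0.0165). The rises numbered 0 without Asenapine replicates 1 and 2 and 1 with the GC and length offsets, without Alendronate replicate 2 or without Risedronate replicate 2. The Cartpt call ended without Asenapine replicate 2, Alendronate replicate 2 or Risedronate replicate 2 (adjusted p 0.0524 to 0.0787). The Cck call ended without Risedronate replicate 1 (adjusted p 0.18). The Npy call ended without Asenapine replicate 1, Alendronate replicate 2 or Risedronate replicate 2 (adjusted p 0.0515 to 0.0776). The Crh call ended without Asenapine replicate 2, 3 or 4 or any bisphosphonate library (adjusted p 0.0564 to 0.173). The Cck call in Lurasidone ended without either Lurasidone library, Alendronate replicate 2 or Risedronate replicate 1 (adjusted p 0.0554 to 0.176). The Cck, Npy and Crh calls ended with the GC and length offsets (adjusted p 0.0606 to 0.361). The Cartpt, Cck, Npy and Crh calls ended without Asenapine replicates 1 and 2 (adjusted p 0.0508 to 0.132). The Crh call ended without Asenapine replicates 3 and 4 (adjusted p 0.137). The Cck call in Lurasidone ended with the GC and length offsets (adjusted p 0.576). The vesicular glutamate transporter gene Slc17a7, a marker of cortical and hippocampal excitatory neurons, had 183, 211, 164 and 165 CPM in the Asenapine libraries, 141 and 159 CPM with Lurasidone and 64.5 and 62.4 CPM with Olanzapine. Slc17a7 stood at 103 and 82.8 CPM with Alendronate and 81.2 and 113 CPM with Risedronate. It was higher with Asenapine (log2 fold change 0.94, SE 0.12, adjusted p = 1.42e-07) and Lurasidone (log2 fold change 0.66, SE 0.15, adjusted p = 0.00419), and both Olanzapine libraries lay below the bisphosphonates (-0.58, adjusted p = 0.114). The Lurasidone call ended with the GC and length offsets and without Lurasidone replicate 2 (adjusted p = 0.0885) or Risedronate replicate 1 (adjusted p = 0.0564). Slc17a7 is 1 of 12 markers in its list. Of the others, Nrgn rose with Asenapine and Lurasidone, and Rorb fell with Asenapine. The summed list was 4890 to 6452 CPM with Asenapine, overlapping the bisphosphonates at 4647 to 5104 CPM. It was 6023 to 6297 CPM with Lurasidone and 4846 to 4874 CPM with Olanzapine.

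Of 20 ribosomal protein genes tested, 8 rose with Lurasidone and none fell, with a list median of 0.32 beside 0.01 over all genes, of which 3.11% rose. Rpl3 had 415, 396, 377 and 404 CPM in the Asenapine libraries, 474 and 432 CPM with Lurasidone and 249.8 and 245 CPM with Olanzapine. Rpl3 stood at 305 and 279 CPM with Alendronate and 299 and 342 CPM with Risedronate. Both Lurasidone libraries were above all others (log2 fold change 0.57, SE 0.10, adjusted p = 0.000313), Asenapine was also above the bisphosphonates (log2 fold change 0.38, SE 0.09, adjusted p = 0.00181), and the Olanzapine libraries were the lowest. The other 7 were Rpl8 (0.55), Rpl10a (0.48), Rpl13 (0.34), Rpl18 (0.57), Rplp1 (0.41), Rps14 (0.33) and Rps19 (0.43), and pseudogene copies make the counts of such genes uncertain. The summed list was 5861 to 6492 CPM with Asenapine, 7013 to 7396 CPM with Lurasidone and 5366 to 5455 CPM with Olanzapine, against 5578 to 6184 CPM with the bisphosphonates. The Lurasidone count was 0 without Lurasidone replicate 1, 3 without Lurasidone replicate 2, 2 without Alendronate replicate 1 or Risedronate replicate 1, and 1 with the GC and length offsets. Without Lurasidone replicate 1 the calls ended for all 8 (adjusted p 0.0571 to 0.483). Leaving out Lurasidone replicate 2 ended the calls of all but Rpl3, Rpl8 and Rplp1 (adjusted p 0.0572 to 0.132). With Olanzapine replicate 1 left out the calls ended for Rpl13 (adjusted p 0.0578). Without Olanzapine replicate 2 the calls ended for Rpl13 (adjusted p 0.0582). Leaving out Alendronate replicate 1 ended the calls of all but Rpl3 and Rpl8 (adjusted p 0.0636 to 0.132). With Alendronate replicate 2 left out the calls ended for Rpl13 and Rps19 (adjusted p 0.0609 to 0.0809). Without Risedronate replicate 1 the calls ended for all but Rpl3 and Rpl8 (adjusted p 0.0564 to 0.236). Leaving out Risedronate replicate 2 ended the calls of Rps14 (adjusted p 0.058). With Asenapine 2 rose, Rpl3 and Rpl7 (0.28), and 2 fell, of which Rpl4 (-0.40) is described here, beside 5.76% and 7.25% over all genes. The Rpl7 call in Asenapine ended without Asenapine replicate 1 or 2 or any bisphosphonate library (adjusted p 0.056 to 0.18). The Rpl3 and Rpl7 calls in Asenapine ended with the GC and length offsets (adjusted p 0.0866 to 0.24). The Rpl7 call in Asenapine ended without Asenapine replicates 1 and 2 (adjusted p 0.0845). The Rpl8, Rpl10a, Rpl13, Rpl18, Rplp1, Rps14 and Rps19 calls in Lurasidone ended with the GC and length offsets (adjusted p 0.365 to 0.969).

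The 478 Lurasidone calls rested on few libraries: the count was 52 without Lurasidone replicate 1, 209 without Lurasidone replicate 2, 212 without Alendronate replicate 1, 231 without Risedronate replicate 1 and 290 without Risedronate replicate 2, and 136 with the GC and length offsets. The genes with large rises were Rhbdd3 (1.62), the ribonuclease P subunit gene Pop7 (1.52), the N-terminal acetyltransferase gene Naa10 (1.49), the actin-binding gene Twf2 (1.48), the iron-sulphur cluster assembly gene Nubp2 (1.32), Them6 (1.26), the ligand gene Wnt7b (1.24) and the aldo-keto reductase gene Akr7a5 (1.23). Those with large falls were F3, tissue factor (-2.89), the activin receptor gene Acvr2a (-2.03), Idi1, isopentenyl diphosphate isomerase of the cholesterol pathway (-1.98), Pdgfra, a receptor of oligodendrocyte precursors (-1.85), Sytl2 (-1.83), Txlng (-1.78), the oxysterol-binding gene Osbp (-1.76) and Lrrc47 (-1.75). F3 was listed at 2.14 and 0 CPM with Lurasidone and at 27.8, 27.7, 11.6 and 11.5 CPM with Asenapine, against 5.52 to 13.5 CPM with the bisphosphonates, and Asenapine and Lurasidone differed in the direct contrast (log2 fold change 4.12, SE 0.69, adjusted p = 0.000515). Each of these calls ended with at least 1 library left out. Without Asenapine replicate 3 the calls ended for Idi1 (adjusted p 0.0538). Leaving out Lurasidone replicate 1 ended the calls of all but Rhbdd3 (adjusted p 0.0731 to 0.408). With Lurasidone replicate 2 left out the calls ended for all but Rhbdd3, Naa10 and Pdgfra (adjusted p 0.0532 to 0.32). Without Olanzapine replicate 1 the calls ended for Rhbdd3 and Idi1 (adjusted p 0.0533 to 0.0749). Leaving out Olanzapine replicate 2 ended the calls of Rhbdd3 and Idi1 (adjusted p 0.0533 to 0.0762). With Alendronate replicate 1 left out the calls ended for all but Naa10, Twf2, Them6, Wnt7b, Acvr2a, Txlng, Osbp and Lrrc47 (adjusted p 0.07 to 0.179). Without Alendronate replicate 2 the calls ended for Rhbdd3, Wnt7b, Acvr2a, Osbp and Lrrc47 (adjusted p 0.062 to 0.163). Leaving out Risedronate replicate 1 ended the calls of all but Naa10, Twf2, Nubp2, Them6, Wnt7b, Akr7a5 and Acvr2a (adjusted p 0.0524 to 0.173). With Risedronate replicate 2 left out the calls ended for all but Naa10, Twf2, Nubp2, Them6, Pdgfra, Sytl2, Txlng and Osbp (adjusted p 0.0511 to 0.168). The Rhbdd3, Pop7, Naa10, Twf2, Nubp2, Them6, Wnt7b, Akr7a5, F3, Acvr2a, Idi1, Pdgfra, Sytl2 and Txlng calls ended with the GC and length offsets (adjusted p 0.0644 to 0.198).

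The Lurasidone calls that held with any 1 library left out included Egr1, described above. Malat1 also passed, and whether that call holds with a library left out was not examined. With Lurasidone Malat1 was at 3592 and 4527 CPM and with Asenapine at 4381, 4202, 3433 and 4175 CPM, against 8896 and 8068 CPM with Alendronate and 8868 and 7480.4 CPM with Risedronate, and Olanzapine was at 9063 and 8762 CPM. The Lurasidone and Asenapine estimates were -1.04 and -1.04 (adjusted p = 2.62e-10 and 1.84e-14). Aldoc, the glycolytic aldolase of astrocytes, rose with both (log2 fold change 0.47, SE 0.09, adjusted p = 0.000776 in Lurasidone, and log2 fold change 0.31, SE 0.08, adjusted p = 0.00445 in Asenapine). The Aldoc call in Lurasidone ended without Lurasidone replicate 1 (adjusted p 0.103).

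Olanzapine differed from the bisphosphonates at the fewest genes, and the count of 94 was 6 without Olanzapine replicate 1, 8 without Olanzapine replicate 2, 43 without Alendronate replicate 1, 32 without Alendronate replicate 2, 45 without Risedronate replicate 1, 25 without Risedronate replicate 2 and 156 without Asenapine replicate 4. Snord89, a small nucleolar RNA gene, had 5.96, 5.69, 16.8 and 11.5 CPM in the Asenapine libraries, 19.3 and 9.31 CPM with Lurasidone and 75.1 and 54.6 CPM with Olanzapine. Snord89 stood at 19.7 and 15.2 CPM with Alendronate and 18.2 and 12.4 CPM with Risedronate. Both Olanzapine libraries were above the 10 others (log2 fold change 1.99, SE 0.29, adjusted p = 1.92e-05). The libraries are primed at poly(A) tails, which mature small nucleolar RNAs lack, and which transcript gave these counts was not tested. The ribosomal protein gene Rpl32 had 126, 117, 110.0 and 114 CPM in the Asenapine libraries, 105 and 109 CPM with Lurasidone and 37.5 and 39.0 CPM with Olanzapine. Rpl32 stood at 81.1 and 101 CPM with Alendronate and 84.9 and 89.9 CPM with Risedronate. It fell with Olanzapine (log2 fold change -1.22, SE 0.21, adjusted p = 0.000227). Snrpd3, a core protein of the spliceosome, had 43.7, 37.7, 71.2 and 69.9 CPM in the Asenapine libraries, 54.6 and 59.0 CPM with Lurasidone and 91.5 and 85.8 CPM with Olanzapine. Snrpd3 stood at 30.7 and 41.4 CPM with Alendronate and 40.0 and 40.1 CPM with Risedronate. It rose with Olanzapine (log2 fold change 1.23, SE 0.22, adjusted p = 0.000907), with both Olanzapine libraries the highest.

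The other large rises with Olanzapine were Ankrd24 (1.39), the translation initiation factor gene Eif1ax (1.35), Lrrc47 (1.34), the semaphorin receptor gene Plxnc1 (1.33) and the centriole gene Cep295 (1.30). The large falls were the spliceosomal isomerase gene Ppil1 (-3.15), the beta tubulin gene Tubb4b (-1.50), the synaptic vesicle gene Syngr3 (-1.26), Zcchc12 (-1.11), the ubiquitin ligase gene Rnf182 (-1.10), Ndufab1, a mitochondrial acyl carrier protein (-1.09), and Churc1 (-1.06). Of the lists, Gabra2, a GABA-A receptor subunit, rose (log2 fold change 0.78, SE 0.21, adjusted p = 0.041) and Slc1a3, the astrocyte glutamate transporter GLAST, fell (log2 fold change -0.40, SE 0.11, adjusted p = 0.0426). Each of the Olanzapine calls named here, Snord89, Rpl32 and Snrpd3 included, ended with at least 1 library left out. Without Lurasidone replicate 1 the calls ended for Tubb4b and Rnf182 (adjusted p 0.0509 to 0.0517). Leaving out Lurasidone replicate 2 ended the calls of Tubb4b and Rnf182 (adjusted p 0.0529). With Olanzapine replicate 1 left out the calls ended for all but Churc1 (adjusted p 0.0697 to 0.493). Without Olanzapine replicate 2 the calls ended for all but Snord89, Rpl32, Snrpd3 and Eif1ax (adjusted p 0.142 to 0.594). Leaving out Alendronate replicate 1 ended the calls of all but Snord89, Rpl32, Snrpd3, Eif1ax, Ppil1 and Zcchc12 (adjusted p 0.0558 to 0.281). With Alendronate replicate 2 left out the calls ended for all but Snord89, Rpl32, Snrpd3, Eif1ax, Lrrc47, Syngr3, Rnf182 and Ndufab1 (adjusted p 0.0544 to 0.186). Without Risedronate replicate 1 the calls ended for all but Snord89, Rpl32, Snrpd3, Ankrd24, Syngr3 and Ndufab1 (adjusted p 0.0578 to 0.263). Leaving out Risedronate replicate 2 ended the calls of all but Snord89, Rpl32, Snrpd3, Eif1ax and Tubb4b (adjusted p 0.0552 to 0.165). The Plxnc1, Tubb4b, Churc1 and Gabra2 calls ended with the GC and length offsets (adjusted p 0.0514 to 0.0932).

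The drugs were then compared with each other, a test in which the bisphosphonates are not the group compared with. At 1537 of 7997 genes (19.2%) the 3 antipsychotics differed. Asenapine differed from Lurasidone at 68 genes (0.85%), 51 higher (0.638%) and 17 lower (0.213%). It differed from Olanzapine at 1618 genes (20.2%), 712 higher (8.9%) and 906 lower (11.3%). Lurasidone differed from Olanzapine at 962 genes (12%), 443 higher (5.54%) and 519 lower (6.49%). The 8 genes with the lowest p set Olanzapine apart from the other antipsychotics in each case. Malat1 (adjusted p = 4.89e-14), the antisense RNA Kcnq1ot1, whose reads may not be separable from those of Kcnq1 without the counting strand (4.22e-09), the chromatin remodeller gene Atrx (4.07e-10), Smim10l1 (1.02e-09), Snord89 (1.11e-09) and Cdr1 (4.89e-14) were higher with Olanzapine than with the other antipsychotics, and Cst3, which encodes the protease inhibitor cystatin C (1.11e-09), and Asic2 (4.64e-09) were lower.

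Cdr1 had 92.3, 140.1, 172 and 122 CPM in the Asenapine libraries, 78.2 and 64.1 CPM with Lurasidone and 403 and 457 CPM with Olanzapine. Cdr1 stood at 210.1 and 167 CPM with Alendronate and 244 and 216 CPM with Risedronate. It passed against the bisphosphonates in opposite directions, lower with Asenapine (log2 fold change -0.67, SE 0.13, adjusted p = 0.00025) and Lurasidone (log2 fold change -1.55, SE 0.18, adjusted p = 2.36e-07) and higher with Olanzapine (log2 fold change 1.04, SE 0.14, adjusted p = 1.92e-05). The locus at chrX:61184005-61185558 is overlapped on the other strand by a noncoding transcript, and because the counting strand is not stated the reads of both may not be separable. Cst3 had 985, 1023, 934 and 843 CPM in the Asenapine libraries, 724 and 913 CPM with Lurasidone and 494 and 424 CPM with Olanzapine. Cst3 stood at 795 and 683 CPM with Alendronate and 729 and 741 CPM with Risedronate. It was above the bisphosphonates with Asenapine (log2 fold change 0.36, SE 0.08, adjusted p = 0.00159) and below them with Olanzapine (log2 fold change -0.68, SE 0.11, adjusted p = 0.000102). Smim10l1 passed in opposite directions too, lower with Lurasidone (-0.60, adjusted p = 0.0156) and higher with Olanzapine (0.89, adjusted p = 8.16e-05).

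Atrx had 252, 258, 309 and 276 CPM in the Asenapine libraries, 275 and 287 CPM with Lurasidone and 525 and 558 CPM with Olanzapine. Atrx stood at 472 and 433 CPM with Alendronate and 445 and 422 CPM with Risedronate. Asenapine and Lurasidone were below the bisphosphonates without overlap and Olanzapine above them, where it did not pass (0.29, adjusted p = 0.167). The count of genes that differ was 589 without Olanzapine replicate 1 and 684 without Olanzapine replicate 2, and 970 with the GC and length offsets, under which Kcnq1ot1 no longer passed.

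The bisphosphonates did not differ from each other at any gene past the threshold in edgeR, nor in DESeq2, with 327 genes (4.09%) at an unadjusted p under 0.05. The count was 3 without Asenapine replicate 1 or 4 and 1 without Asenapine replicate 2, Alendronate replicate 1 or Risedronate replicate 1. Egr1 was lower with Alendronate than with Risedronate by -0.70 (SE 0.16, adjusted p = 0.154), and Sgk1 by -0.72 (adjusted p = 0.997). Both are genes above whose antipsychotic calls changed with the bisphosphonate used.

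A second set of brain libraries allowed the same genes to be read in 2 further antipsychotics against a vehicle, with no library in common: 2 Aripiprazole and 2 Clozapine libraries against 2 libraries of CMCTween, a suspension of 0.5percentCMC0.25percentTween80. Of 9292 genes tested, 112 passed (1.21%), 71 higher (0.764%) and 41 lower (0.441%), with 11.4% at an unadjusted p under 0.05. Of the class genes described above, Fut8 (0.02), Osbp2 (0.34), Tmsb10 (0.23) and Slc25a4 (-0.06) did not pass (adjusted p = 0.986, 0.115, 0.164 and 0.848).

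Arc was lower in that set as well, at 16.3 and 14.4 CPM with Aripiprazole and 14.3 and 13.0 CPM with Clozapine, against 43.7 and 33.5 CPM with CMCTween (log2 fold change -1.42, SE 0.24, adjusted p = 6.56e-06). R3hdm4 was higher (log2 fold change 0.79, SE 0.14, adjusted p = 2.47e-05), Pura was lower (log2 fold change -0.48, SE 0.13, adjusted p = 0.0378), and so was Malat1 (log2 fold change -0.36, SE 0.05, adjusted p = 4.74e-10). Against the bisphosphonates Malat1 was lower with Asenapine and Lurasidone and not with Olanzapine. Cirbp (0.21), Hspa5 (0.16), Hsp90ab1 (-0.04), Nfkbia (-0.23) and Txnip (0.24), which separated Asenapine from the bisphosphonates, did not pass there (adjusted p from 0.437 to 0.852). The number passing fell to 61 without Aripiprazole replicate 4, 52 without Clozapine replicate 3, 24 without CMCTween replicate 4 and 15 without CMCTween replicate 3. The genes given for this set are a choice, and whether their calls hold with a library left out was not examined.

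Of 10 oligodendrocyte markers tested, 2 fell with Asenapine, Mal (log2 fold change -0.56, SE 0.12, adjusted p = 0.0006) and Ermn (-0.63), and the summed list was 3517 to 5256 CPM with Asenapine, 3826 to 4296 CPM with Lurasidone and 4019 to 4332 CPM with Olanzapine, against 4750 to 5554 CPM with the bisphosphonates. Lurasidone and Olanzapine lay below the bisphosphonates throughout, and Asenapine overlapped them. Of 10 astrocyte markers, Aldoc rose and Slc1a2, the glutamate transporter GLT-1 (log2 fold change -0.54, SE 0.09, adjusted p = 1.33e-05), and Slc4a4 (-0.38) fell with Asenapine. Of 10 cerebellum markers, Cbln1 (log2 fold change 0.64, SE 0.12, adjusted p = 0.000166) and Cbln3 (0.60), both granule cell genes, rose, and the Purkinje cell gene Pcp4 fell (log2 fold change -0.44, SE 0.09, adjusted p = 0.00028). The interneuron gene Pvalb rose (log2 fold change 0.67, SE 0.10, adjusted p = 2.86e-06), and Enpp2, autotaxin of the choroid plexus, fell (-0.45). Their part in the Asenapine results was not tested. With Asenapine 5.76% of all genes rose and 7.25% fell, so 1 call among 10 markers is near these shares. The Slc4a4 call ended without Asenapine replicate 1 or 2, Alendronate replicate 1 or Risedronate replicate 1 (adjusted p 0.0831 to 0.17). The Slc4a4 call ended with the GC and length offsets (adjusted p 0.661). The Ermn and Slc4a4 calls ended without Asenapine replicates 1 and 2 (adjusted p 0.0662 to 0.515).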

How the data were processed

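The measurements were whole-number read counts per gene symbol for brain, deposited by the authors as 1 table, from RNA of flash-frozen tissue made into libraries with the QuantSeq 3′ mRNA-Seq kit, per the labels' protocols. The submitters' processing notes name bcl2fastq 2.17, TopHat2 2.1.1, HTSeq 0.9.1 and build mm10. The gene annotation and the counting strand are not given in the sources used here. Total counts per library ranged from 670011 to 1321852, which limits precision for genes of a few CPM. The members and the gene lists were chosen with earlier results of these data known.

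Counts of the 12 libraries were filtered with filterByExpr (minimum count 10), scaled by TMM and tested with edgeR 4.0.16 in R 4.3.3 (robust quasi-likelihood F test, Benjamini-Hochberg adjustment over the 7997 genes tested, threshold 0.05). The class test compared 8 with 4 libraries (10 residual degrees of freedom). Libraries of 1 drug counted as independent in it, so the drug was not its unit. The drug tests used 1 fit of 5 drug groups (7 residual degrees of freedom), each antipsychotic against the mean of the bisphosphonates, with pairwise contrasts and a joint test among the antipsychotics. CPM values are counts scaled to the TMM-adjusted library size, and levels are not per length, so they are compared within genes only. The scripts were tested on simulated data with 200 changed genes.

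Named genes were those past the threshold with no overlap with the 4 bisphosphonate libraries and a mean of at least 5 CPM: up to 15 in each direction for the class, 8 for each drug, and the 8 with the lowest p among the antipsychotics, plus list members, and a few that meet this rule are not reported here. Alternatives were RLE size factors, no filter and a minimum count of 30, DESeq2 1.42.0, all 38 brain libraries in 1 fit, a replicate block, each bisphosphonate alone, each drug or library left out, and equal drug weights. After seeing the data, offsets for GC content and length (loess, span 0.5) and the omission of Asenapine replicates 1 and 2 were added. Of 24421 symbols, 23376 matched a GENCODE M21 transcript (GRCm38). The grouping of brain libraries into sets was read from their expression, not from labels.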

Additional observations from a re-analysis of the deposited data

Results flagged for a closer look

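In the 4 Asenapine libraries, 1 library stood far from the 3 others at 8 of 142 named genes examined, where chance alone gives about 1 in 20. Replicate 3 was high for Adrb1 (27.2 CPM, against 22.7 to 23 CPM in the others), Gabra4 (84.1 CPM, against 63.6 to 65.4 CPM) and Hspa4l (78.9 CPM, against 41.2 to 46.9 CPM). Replicate 4 was high for Ankrd24 (21.9 CPM, against 15.5 to 15.9 CPM) and low for Sytl2 (4.17 CPM, against 18.1 to 19.9 CPM). Replicate 1 was high for Arl5b (7.94 CPM, against 6.26 to 6.47 CPM) and low for Gria4 (44.7 CPM, against 56.2 to 57.4 CPM). Replicate 2 was low for Snph (110 CPM, against 132 to 134 CPM).

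Levels differed between the libraries of the 3 drugs in direct tests: 68 genes between Asenapine and Lurasidone, 1618 between Asenapine and Olanzapine, and 962 between Lurasidone and Olanzapine. The lowest adjusted p of the joint test in edgeR were at Cdr1 (4.89e-14), Malat1 (4.89e-14), Atrx (4.07e-10), Smim10l1 (1.02e-09), Cst3 (1.11e-09), Snord89 (1.11e-09), Kcnq1ot1 (4.22e-09) and Asic2 (4.64e-09). Their values in each library stand with the comparison among the drugs.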

How the results depend on the processing

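The class count of 6 was 62 with no count filter, 26 with DESeq2, 331 in 1 fit of all 38 brain libraries, 200 with the 3 drugs weighted equally in the 5-group fit, 911 without Olanzapine, 2 without Lurasidone and 0 without Asenapine. It was 1 with Alendronate alone, 0 with Risedronate alone and 0 without Asenapine replicates 3 and 4, and ran from 0 (Alendronate replicate 1 or 2 left out) to 127 (Olanzapine replicate 1). DESeq2 gave 413 genes for Asenapine, 211 for Lurasidone, 29 for Olanzapine, 609 among the drugs and 40 for Aripiprazole and Clozapine. With Alendronate alone the drug counts were 637 for Asenapine, 302 for Lurasidone and 19 for Olanzapine, and with Risedronate alone 396, 151 and 46 in the same order. Without Asenapine replicates 3 and 4 they were 870 for Lurasidone, 306 for Olanzapine and 2307 among the drugs. Without Asenapine replicates 1 and 2 they were 473 for Asenapine, 751 for Lurasidone and 244 for Olanzapine. The fit of all 38 libraries gave 189 for Olanzapine and 25 for Aripiprazole and Clozapine. The GC and length offsets gave 614 for Asenapine, 136 for Lurasidone and 970 among the drugs. With 1 library left out the counts ran from 599 to 1196 for Asenapine, 52 to 630 for Lurasidone, 6 to 156 for Olanzapine, 589 to 1868 among the drugs, 0 to 3 between Alendronate and Risedronate, and 15 to 85 for Aripiprazole and Clozapine. With no filter 9 genes passed between Alendronate and Risedronate. The causes were not tested, beyond fewer libraries where some were left out.

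Of 139 named calls against the bisphosphonates, 39 held with every single library left out. Of all named calls, those among the drugs included, 67 were lost with the GC and length offsets, 83 with Risedronate alone, 62 with Alendronate alone, 31 with DESeq2 and 9 with no filter. The replicate numbers showed no sign of pairing the libraries (same-numbered deviations correlated with a median r of 0.0017, from -0.112 to 0.112 over 20 pairs). In a drug of 2 libraries the deviations are exact opposites, so the 20 pairs are not independent and cannot exclude pairing. With replicate number as a block the counts were 0 for the class, 1458 for Asenapine, 829 for Lurasidone and 277 for Olanzapine. They were 2251 among the drugs and 6 between Alendronate and Risedronate. Replicate numbers 3 and 4 occurred only in Asenapine, in a single library each, so the block fitted those libraries exactly and took them out of the test. With both left out and no block the counts were 0 for the class, 1483 for Asenapine, 870 for Lurasidone and 306 for Olanzapine. Among the drugs the count was then 2307. The block counts therefore cannot tell pairing from the loss of those libraries. Depth limits genes of a few CPM, where a difference may go undetected.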

Other observations

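Neurotransmitter receptor genes were mostly too low to test or did not pass. Of 16 glutamate and GABA receptor genes tested, Gabra2 (log2 fold change -0.63, SE 0.19, adjusted p = 0.0195) and Gria4 (log2 fold change -0.51, SE 0.15, adjusted p = 0.0177), an AMPA receptor subunit, fell with Asenapine, and Gabra4 fell with Lurasidone (log2 fold change -0.72, SE 0.21, adjusted p = 0.0236). Gabra2 stood at 23.8, 28.4, 29.8 and 34.4 CPM with Asenapine and 84.4 and 68.6 CPM with Olanzapine, against 57.7 and 56.6 CPM with Alendronate and 35.2 and 36.0 CPM with Risedronate, so Alendronate was above Risedronate. Of 7 adrenergic, histamine and muscarinic receptor genes, Adrb1, the beta-1 adrenergic receptor, fell with Asenapine (log2 fold change -0.71, SE 0.21, adjusted p = 0.0179). Of 6 dopamine synthesis and transport genes and 1 serotonin gene tested, none passed with any of the 3 drugs. The Gabra2 call in Asenapine ended without Asenapine replicate 1 or 2, Alendronate replicate 1 or either Risedronate library (adjusted p 0.056 to 0.075). The Gria4 call in Asenapine ended without Asenapine replicate 1, Alendronate replicate 1 or Risedronate replicate 1 (adjusted p 0.0614 to 0.137). The Adrb1 call in Asenapine ended without Asenapine replicate 2, Alendronate replicate 1 or either Risedronate library (adjusted p 0.0533 to 0.161). The Gabra4 call in Lurasidone ended without Lurasidone replicate 1, Alendronate replicate 2 or Risedronate replicate 1 (adjusted p 0.071 to 0.429). The Gabra2 and Adrb1 calls in Asenapine ended with the GC and length offsets (adjusted p 0.0503 to 0.0575). The Gabra2, Gria4 and Adrb1 calls in Asenapine ended without Asenapine replicates 1 and 2 (adjusted p 0.16 to 0.258). The Gabra4 call in Lurasidone ended with the GC and length offsets (adjusted p 0.293).

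Over all genes tested, 5.76% were higher and 7.25% lower with Asenapine, and 3.11% higher and 2.86% lower with Lurasidone, so 1 call in a list of 12 or 19 genes is near the share of all genes with Asenapine. Of 9 activity-regulated synaptic genes, the somatostatin gene Sst rose with Asenapine (0.45) and Lurasidone (0.62) and the secretogranin gene Scg2 fell with both (-0.32 and -0.76), with Rheb lower in Lurasidone (-0.88). Of 12 clock genes, 1 passed, Hlf, which fell with Asenapine (-0.31) and Lurasidone (-0.66). Of 19 genes of cholesterol synthesis and uptake, 1 passed with Asenapine, Hmgcs1, HMG-CoA synthase, which fell (log2 fold change -0.33, SE 0.10, adjusted p = 0.0178), and it was lower with Aripiprazole and Clozapine than with CMCTween as well (log2 fold change -0.38, SE 0.09, adjusted p = 0.00374). The Sst call in Asenapine ended without Alendronate replicate 1 or Risedronate replicate 1 (adjusted p 0.0527 to 0.103). The Scg2 call in Asenapine ended without Asenapine replicate 1 or 4, Alendronate replicate 1 or Risedronate replicate 1 (adjusted p 0.0525 to 0.22). The Hlf call in Asenapine ended without Asenapine replicate 1, 2 or 4, either Olanzapine library, Alendronate replicate 1 or either Risedronate library (adjusted p 0.0559 to 0.266). The Hmgcs1 call in Asenapine ended without Asenapine replicate 2, Alendronate replicate 1 or Risedronate replicate 2 (adjusted p 0.0745 to 0.11). The Sst call in Lurasidone ended without Lurasidone replicate 1 (adjusted p 0.29). The Scg2 call in Lurasidone ended without Lurasidone replicate 1 (adjusted p 0.0544). The Rheb call in Lurasidone ended without either Lurasidone library, Alendronate replicate 1 or either Risedronate library (adjusted p 0.0714 to 0.239). The Hlf call in Lurasidone ended without Lurasidone replicate 1 (adjusted p 0.18). The Sst, Scg2, Hlf and Hmgcs1 calls in Asenapine ended with the GC and length offsets (adjusted p 0.0877 to 0.357). The Hlf and Hmgcs1 calls in Asenapine ended without Asenapine replicates 1 and 2 (adjusted p 0.124 to 0.211). The Sst and Scg2 calls in Asenapine ended without Asenapine replicates 3 and 4 (adjusted p 0.0525 to 0.0652). The Sst call in Lurasidone ended with the GC and length offsets (adjusted p 0.325).

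Of the other marker genes, Asenapine was higher for Nrgn (0.27), Calb2 (0.45) and Vtn (0.77), and lower for Rorb (-0.55), Chgb (-0.38) and Glra1 (-0.53). Lurasidone was higher for Nrgn (0.47) and lower for Mal (-0.45), Gja1 (-0.75), Slc1a2 (-0.36) and Zic1 (-0.66). None of the 7 microglia and 4 endothelial markers tested passed with any drug, no member of the inflammation list reached the level needed for testing, and the mitochondrially encoded genes are not among the symbols of the table used here. The Nrgn call in Asenapine ended without Asenapine replicate 4, Alendronate replicate 2 or Risedronate replicate 1 (adjusted p 0.0906 to 0.183). The Calb2 call in Asenapine ended without Asenapine replicate 2, either Alendronate library or Risedronate replicate 2 (adjusted p 0.0684 to 0.211). The Vtn call in Asenapine ended without Asenapine replicate 2 or Risedronate replicate 2 (adjusted p 0.089 to 0.0958). The Chgb call in Asenapine ended without Alendronate replicate 1 (adjusted p 0.053). The Glra1 call in Asenapine ended without Asenapine replicate 2 or 4, Alendronate replicate 1 or Risedronate replicate 1 (adjusted p 0.054 to 0.311). The Nrgn call in Lurasidone ended without Lurasidone replicate 1 (adjusted p 0.085). The Mal call in Lurasidone ended without either Lurasidone library, either Olanzapine library or any bisphosphonate library (adjusted p 0.0535 to 0.26). The Gja1 call in Lurasidone ended without either Lurasidone library, Alendronate replicate 1 or Risedronate replicate 2 (adjusted p 0.0566 to 0.183). The Slc1a2 call in Lurasidone ended without either Lurasidone library or any bisphosphonate library (adjusted p 0.0797 to 0.321). The Zic1 call in Lurasidone ended without either Lurasidone library, Alendronate replicate 1 or Risedronate replicate 2 (adjusted p 0.0907 to 0.14). The Nrgn, Calb2, Vtn and Rorb calls in Asenapine ended with the GC and length offsets (adjusted p 0.119 to 0.488). The Calb2, Vtn, Rorb and Chgb calls in Asenapine ended without Asenapine replicates 1 and 2 (adjusted p 0.116 to 0.34). The Nrgn and Glra1 calls in Asenapine ended without Asenapine replicates 3 and 4 (adjusted p 0.164 to 0.302). The Nrgn, Mal, Gja1, Slc1a2 and Zic1 calls in Lurasidone ended with the GC and length offsets (adjusted p 0.106 to 0.485).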
